A study of Mus musculus with 6 samples.

Results

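Ifit1, Ifit2, Ifit3 and Ifit3b are the 4 genes of the mouse IFIT family (interferon-induced proteins with tetratricopeptide repeats) described here, out of 19288 genes named on the array. They were chosen by symbol: every probeset that the platform annotation assigns to one of them was taken, which gave 4 of 26851 probesets, 1 per gene, and 0 of these genes shared a probeset with another gene. Their signals were read from 6 Affymetrix arrays, each of 1 sample of cultured mouse embryonic fibroblasts, which the series title calls dp53R and the sample titles Ras; neither name is spelled out in the labels. The 3 control arrays came from cells with the hairpin construct shSCR and 3 from cells with shARF, a hairpin against ARF, a tumour suppressor protein of the Cdkn2a locus that is best known for stabilising p53. All 6 samples were grown in the same serum-containing medium and carried a hairpin. The labels call the replicates biological but name no separate cultures or animals, so a p-value here reflects only how far these samples spread, which may be technical.

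IFIT genes are silent or low in most resting cells and are switched on when interferon binds its receptor or when viral RNA is sensed in the cytosol. Receptor kinases then activate ISGF3, a complex with STAT2 and IRF9 that binds interferon-stimulated response elements near the starts of its targets, and IRF3 and related factors can bind the same elements directly. The proteins bind RNA or each other: IFIT1 holds the ends of RNA that lack the host's cap methylation and blocks their translation, IFIT2 binds AU-rich RNA, and IFIT3 is known mainly as a partner of the other family members. Ifit3b is a near copy of Ifit3 in the mouse. These transcripts are therefore widely used as a readout of interferon signalling.

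All 4 genes rose in shARF cells, and Ifit2 rose by far less than the other three. Ifit3 and Ifit1 rose 6.24-fold and 5.85-fold, while Ifit2 rose 1.31-fold. Ifit3b, whose shSCR signals lay at the detection level, rose 5.23-fold on the signals as given and less with a constant added to them, as set out with its values. In limma, 1.62% of the 15145 genes tested were higher in shARF at an adjusted p under 0.05 and 4.01% changed in either direction. By size of the difference, Ifit3 stood 4th and Ifit1 5th among the genes tested, and Ifit2 stood 317th, or 199th of the 246 genes that rose. The arrays measured bulk RNA, so more cells with the transcript and more transcript per cell cannot be told apart.

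**Figure D1:**
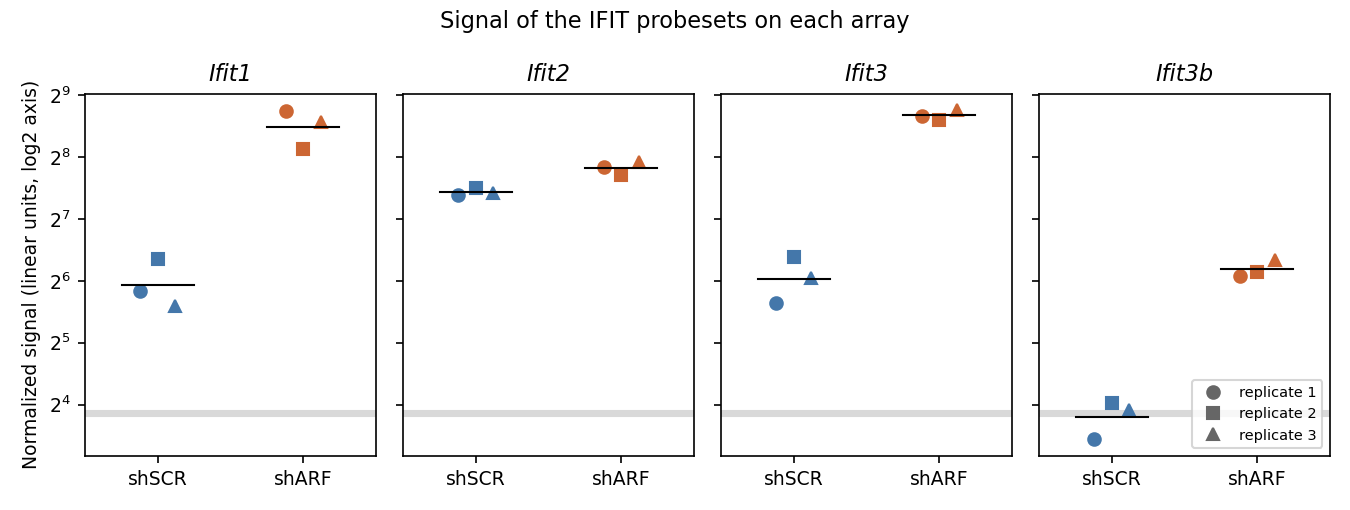
Normalized signal (linear units on a log2 axis) of the probeset of each IFIT gene on the 3 shSCR and 3 shARF arrays; symbols mark the replicate, black lines the mean of the log2 values, and the grey band the detection levels of the 6 arrays (14.1 to 14.9). The groups are apart in every panel, by the least for Ifit2, and the shSCR values of Ifit3b lie at the detection level.

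The signal of Cdkn2a, the locus of the hairpin's target, was lower on every shARF array. Which transcripts of the locus its probeset covers was not tested, so the drop is not a measure of ARF by itself. In replicate order, Cdkn2a gave signals of 535, 539 and 516 with shSCR and of 315.4, 254 and 286 with shARF, a 1.87-fold drop (limma, adjusted p = 0.00459). Array medians were 41.97 to 42.86, and the fibroblast label fitted its markers: 11 of 11 listed fibroblast genes were measured and 0 changed (limma; unadjusted p under 0.05 for 1 higher and for 3 lower). Of 4 epithelial markers 3 were tested and 1 rose, the keratin gene Krt18 (unadjusted p under 0.05 for 2 higher and for 0 lower). Krt8, the keratin that pairs with it, had means of 57.1 and 96.5 (1.67-fold; limma, adjusted p = 0.0583), and the summed signal of that list was 193 to 225 in shSCR and 299 to 434 in shARF; Cdh1, the adhesion molecule that defines epithelium, was below detection on each of the 6 arrays. Of 8 macrophage markers 3 were tested and 0 changed (limma; unadjusted p under 0.05 for 0 higher and for 1 lower). Their summed signal was between 181 and 213 in shSCR and between 184 and 206 in shARF. Of 7 lymphocyte and plasmacytoid dendritic cell markers 2 were tested and 0 changed (unadjusted, 1 higher and 0 lower). Their sums were 92.0 to 94.6 against 93.8 to 104. Of 4 endothelial markers 3 were tested and 0 changed (unadjusted, 1 higher and 0 lower), with sums of 64.8 to 67.2 against 64.4 to 70.4. The part of these cell types in the IFIT values was not tested.

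The starts of the 3 strongly rising genes are shown because they hold the letters of the interferon-stimulated response element. RefSeq start windows of build GRCm38.p6, from 250 bases before to 50 bases after an annotated start, were available for 4 of 4 genes and were searched for the core of the element, GAAA, any 2 bases and GAAA again, or TTTC, any 2 bases and TTTC on the opposite strand. Capitals mark the matches.
Ifit1, chr19:34640639-34640938, + strand: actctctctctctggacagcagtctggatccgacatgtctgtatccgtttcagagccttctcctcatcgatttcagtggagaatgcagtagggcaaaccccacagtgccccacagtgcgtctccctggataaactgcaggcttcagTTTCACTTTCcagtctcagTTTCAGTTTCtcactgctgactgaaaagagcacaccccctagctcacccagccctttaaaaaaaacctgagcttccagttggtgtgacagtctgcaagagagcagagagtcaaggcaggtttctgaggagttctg
Ifit3, chr19:34583279-34583578, + strand: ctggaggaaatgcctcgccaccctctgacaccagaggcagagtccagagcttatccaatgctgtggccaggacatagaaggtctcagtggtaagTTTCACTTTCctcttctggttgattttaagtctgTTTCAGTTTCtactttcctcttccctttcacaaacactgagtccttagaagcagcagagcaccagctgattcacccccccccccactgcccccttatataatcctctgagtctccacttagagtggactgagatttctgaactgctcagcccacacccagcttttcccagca
Ifit3b, chr19:34607707-34608006, + strand: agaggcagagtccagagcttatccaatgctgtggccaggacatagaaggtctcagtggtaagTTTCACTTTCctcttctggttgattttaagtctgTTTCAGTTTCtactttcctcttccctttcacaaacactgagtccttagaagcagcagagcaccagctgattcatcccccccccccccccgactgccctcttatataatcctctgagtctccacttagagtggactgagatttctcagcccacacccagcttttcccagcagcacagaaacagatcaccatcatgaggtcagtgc
Each of these windows held 2 matches, where 3.44% of 32851 windows of the same length held at least 1 and 0.225% held at least 2. The matches lay 95 to 104 and 76 to 85 bases before the start of Ifit1, 147 to 156 and 113 to 122 before that of Ifit3, and 179 to 188 and 145 to 154 before that of Ifit3b. The windows of Ifit3 and Ifit3b were identical at 259 of 260 aligned bases.

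The longest run of bases common to the windows of Ifit1, Ifit3 and Ifit3b was AGTTTCACTTTCC, 13 bases that contain the first match of each. It occurred on either strand in 5 of 32851 windows, those of Ifit1, Ifit3, Ifit3b, Ifit1bl2 and Cxcl10. The run was picked from the windows of Ifit1, Ifit3 and Ifit3b, so this count does not measure how rare it is. The Ifit1bl2 window runs in the opposite direction from the same stretch as that of Ifit1 and overlaps it. It thus held the same 2 matches as the Ifit1 window, yet the signal of Ifit1bl2 was below detection on all 6 arrays. A further Ifit1bl2 window held 0 matches, and each window of the paralogue Ifit1bl1 held 1. Cxcl10, an interferon-inducible chemokine gene named here after its values were seen, gave signals of 60.6, 75.6 and 60.6 in shSCR and of 376, 209 and 316 in shARF, which is 2.16 ± 0.21 (SE) higher on the log2 scale (limma, adjusted p = 0.00459).

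The windows given for Ifit2 held no match to the core.
Ifit2, chr19:34550444-34550743, + strand: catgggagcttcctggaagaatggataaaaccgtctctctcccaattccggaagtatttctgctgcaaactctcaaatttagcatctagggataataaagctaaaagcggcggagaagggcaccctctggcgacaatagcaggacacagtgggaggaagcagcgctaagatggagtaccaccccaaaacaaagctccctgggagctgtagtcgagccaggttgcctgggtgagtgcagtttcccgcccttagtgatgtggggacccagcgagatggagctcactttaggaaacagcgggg
A further Ifit2 window, at chr19:34550838-34551137 on the + strand, held 0 as well. Both starts lie at the far end of a gene model of 25985 bases, 144 and 538 bases from its first base, whereas the models of Ifit3 and Ifit3b span 5864 and 5874 bases. RefSeq lists 3 transcripts for Ifit2, and any start other than these was not read here. The letters say nothing of binding, and no factor was measured on this DNA.

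**Figure D2:**
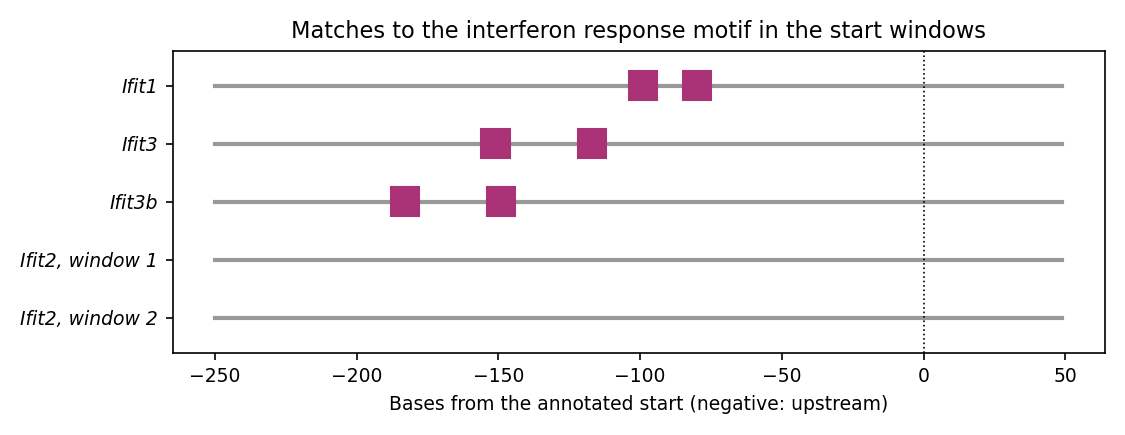
Positions of the matches (purple boxes) within the start windows of the 4 genes, in bases from the annotated start (dotted line; negative values are upstream). The windows of Ifit1, Ifit3 and Ifit3b hold 2 matches each, and both windows of Ifit2 hold 0.

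Ifit1, the family member that recognises foreign RNA ends, gave signals of 56.9, 81.8 and 48.3 on the shSCR arrays and of 426, 279 and 379.6 on the shARF arrays, in the order of replicates 1, 2 and 3 as in all later values. The groups did not overlap, as for 28.6% of the genes tested in either direction, and the lowest shARF array was 3.41-fold above the highest shSCR array. The shSCR mean was 62.3 ± 17.4 (SD, n = 3) and the shARF mean 361 ± 75.3, and the rise on the log2 scale was 2.55 ± 0.22 (SE), a fold of 5.85 with a 95% confidence interval of 4.08 to 8.39 (limma, adjusted p = 0.00359). Its relative spread was the widest of the 4 genes in both groups, at 28.0% of the mean in shSCR and 20.8% in shARF. The call held without any 1 array (limma, adjusted p from 0.00246 to 0.0235).

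Ifit3, the partner of other IFIT proteins, gave 50.2, 84.0 and 66.3 on the shSCR arrays and 405, 386 and 433 on the shARF arrays. Its groups were the farthest apart of the 4 genes, the lowest shARF array lying 4.60-fold above the highest shSCR array. The shSCR mean was 66.8 ± 16.9 (SD, n = 3) and the shARF mean 408 ± 23.3, and the rise on the log2 scale was 2.64 ± 0.17 (SE), or 6.24-fold (95% confidence interval 4.72 to 8.24; limma, adjusted p = 0.00154). The spread between replicates was 25.3% of the mean in shSCR and 5.72% in shARF. The call held without any 1 array (highest adjusted p in limma 0.0155).

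Ifit3b, the near copy of Ifit3, was close to undetected in the control cells. It gave 10.9, 16.4 and 15.1 on the shSCR arrays, 2 of which lay above the detection level, and 67.6, 70.8 and 80.4 on the shARF arrays, all above it. The lowest shARF array was 4.13-fold above the highest shSCR array, which was one of those measured. The shSCR mean was 14.1 ± 2.88 (SD, n = 3) and the shARF mean 73.0 ± 6.65, and the rise on the log2 scale was 2.39 ± 0.15 (SE), or 5.23-fold (95% confidence interval 4.07 to 6.73; limma, adjusted p = 0.00154), and the call held without any 1 array (highest adjusted p 0.0140). Its 2 detected shSCR arrays were too few to pass the filter on dim probesets by themselves, so it entered the test through its shARF values; with no such filter it was also called (limma, adjusted p = 0.00199). The size of the change is uncertain, since the shSCR mean is no higher than the detection level: with 16 added to every signal before the log it was 1.56 and stayed called (limma). Ifit3 and Ifit3b are near-identical, so their separate values are uncertain; how far each probeset also measures the other gene was not tested.

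Ifit2, the family member that binds AU-rich RNA, gave 167, 180.3 and 170.3 on the shSCR arrays and 228, 209.9 and 242 on the shARF arrays. The groups did not overlap, but the lowest shARF array was only 1.16-fold above the highest shSCR array. The shSCR mean was 172 ± 7.05 (SD, n = 3) and the shARF mean 227 ± 15.99, and the rise on the log2 scale was 0.39 ± 0.073 (SE), or 1.31-fold (95% confidence interval 1.16 to 1.48; limma, adjusted p = 0.0359). Groups that do not overlap, with shARF higher, were found for 12.0% of the genes tested. The call of Ifit2 was lost without any 1 of 5 arrays, shSCR replicates 1, 2 and 3 and shARF replicates 1 and 3 (limma, adjusted p up to 0.124), and held without shARF replicate 2 (0.0436). It was also lost with no filter on dim probesets (limma, adjusted p = 0.0601), and its direction held in all these settings.

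The smaller response of Ifit2 was seen on each of the 3 shARF arrays. It was known when the comparison was chosen, and the ratios are given as a description. Relative to the shSCR mean, the log2 ratio of Ifit2 to the average of the other three was 0.23, -0.28 and 0.05 on the shSCR arrays and -2.17, -2.09 and -2.15 on the shARF arrays. The ratio thus changed by -2.13 ± 0.15 (SE), a 4.39-fold shift, and the 3 shARF arrays lay closer together than the shSCR arrays. Against single genes the change was -2.16 ± 0.24 for Ifit1, -2.25 ± 0.18 for Ifit3 and -1.996 ± 0.16 for Ifit3b, whose shSCR signals lay at the detection level. A ratio within an array shows unequal change and not a difference in amount between genes. Ifit2 was read from 1 probeset, and which of its 3 transcripts that probeset measures was not tested. The smaller change is therefore that of the probeset.

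**Figure D3:**
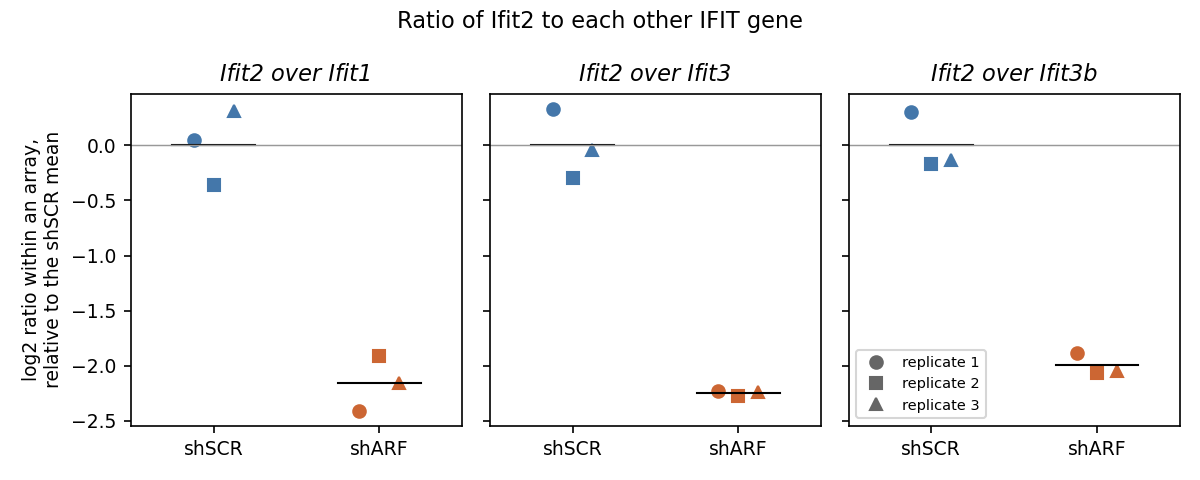
log2 ratio of Ifit2 to Ifit1, Ifit3 and Ifit3b within each array, relative to the shSCR mean of that ratio; symbols mark the replicate and black lines the group means. The shARF arrays lie between -2.41 and -1.88 over the 3 panels, and the shSCR arrays between -0.36 and 0.33.

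Among the other three the differences in response were small beside that of Ifit2. The ratio of Ifit1 to Ifit3 changed by -0.09 ± 0.24 (SE) and the groups overlapped (exact permutation, two-sided, p = 0.7, also after adjustment over the 6 pairs of IFIT genes). With 3 arrays per group this permutation test cannot go below p = 0.1, the value for Ifit2 against Ifit1. It could call no pair different, so no equal response is read from it. That of Ifit1 to Ifit3b changed by 0.16 ± 0.30, and the groups overlapped as well. The ratio of Ifit3 to its near copy Ifit3b was, relative to the shSCR mean, -0.03, 0.13 and -0.10 on the shSCR arrays and 0.35, 0.21 and 0.19 on the shARF arrays. The shSCR ratios divide by an Ifit3b signal at the detection level, so no difference in response between these copies is read from them. The confidence intervals of the 3 folds overlapped one another, and none reached that of Ifit2.

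Within a group the family members rose and fell with the array to some degree. On shSCR replicate 2 the signal was the highest of its group for 4 of 4 genes, and on shSCR replicate 1 it was the lowest for 3 of 4, with Ifit1 lowest on replicate 3. On shARF replicate 2 the signal was the lowest for 3 of 4, with Ifit3b lowest on replicate 1, and shARF replicate 3 was the highest for 3 of 4. Of the 19 antiviral effector genes tested, 13 were also highest of their group on shSCR replicate 2, while 12 were highest and 5 lowest on shARF replicate 2. With both replicate 2 arrays left out, which was chosen after seeing the data, the log2 changes were 2.94 for Ifit1, 2.86 for Ifit3, 2.53 for Ifit3b and 0.48 for Ifit2, and Ifit2 was not called (limma, adjusted p = 0.0839).

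**Figure D4:**
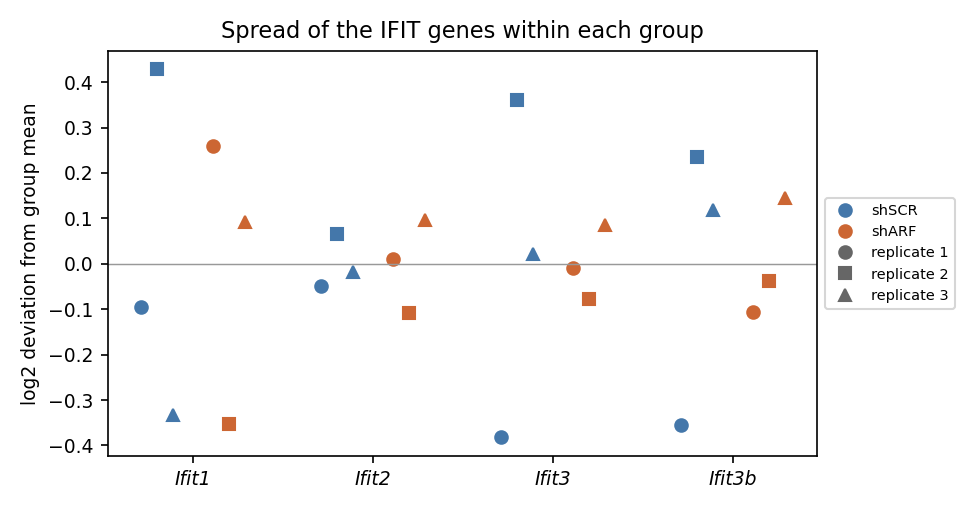
Deviation of each array from its group mean (log2 signal) for the 4 IFIT genes; colour marks the group and symbol the replicate. shSCR replicate 2 is above 0 for every gene, and shARF replicate 2 is below 0 for every gene, at -0.35 for Ifit1 and -0.04 for Ifit3b.

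Of the other family genes and the neighbours on chromosome 19, none that could be tested passed. Ifit1bl2, a paralogue that shares its start region with Ifit1, gave 5.09, 5.62 and 5.17 in shSCR and 5.78, 7.58 and 5.95 in shARF, below the detection level on all 6 arrays, so no fold is given. No signal of Ifit1bl1, which lies between Ifit3 and Ifit3b, was analysed here. In RefSeq gene order the family is flanked by Ch25h, Lipa and Gm31417 before Ifit2 and by Slc16a12, Gm46654 and Gm18425 after the last family gene. Ch25h, which makes an antiviral oxysterol, gave 48.7 ± 6.82 (SD, n = 3) in shSCR and 60.01 ± 4.40 in shARF, which did not pass (limma, adjusted p = 0.185). Lipa, the lysosomal acid lipase next to Ifit2, gave 234 ± 5.92 and 209.9 ± 5.71 and did not pass either (limma, adjusted p = 0.194). Slc16a12 was not above the detection level on enough arrays to be tested.

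Genes upstream of IFIT transcription and other antiviral genes rose in part. Over 5 lists, of RNA sensing, of interferons and receptors, of transcription factors and feedback, of antiviral effectors, and of the cap and translation machinery on which IFIT proteins act, 60 genes were tested, of which 23 rose, 1 fell and 36 did not pass, beside 1.62% higher and 2.38% lower over all genes. The median log2 difference of all genes tested was -0.01. All 23 had a larger change than Ifit2, and 3 had a larger change than Ifit3. The smallest was 0.44 ± 0.070 (SE) for Irf1, close to the 0.39 ± 0.073 of Ifit2. The 23 were picked by the test itself, which favours larger changes, so this places Ifit2 only among genes that passed. Of the 24 called genes 7 kept their call without any 1 array. The 7 include Cmpk2, an antiviral effector gene that entered the test only through its shARF values. The 24 calls became 9 without shSCR replicate 1, 9 without shSCR replicate 3 and 14 without shARF replicate 1 (limma).

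**Figure D5:**
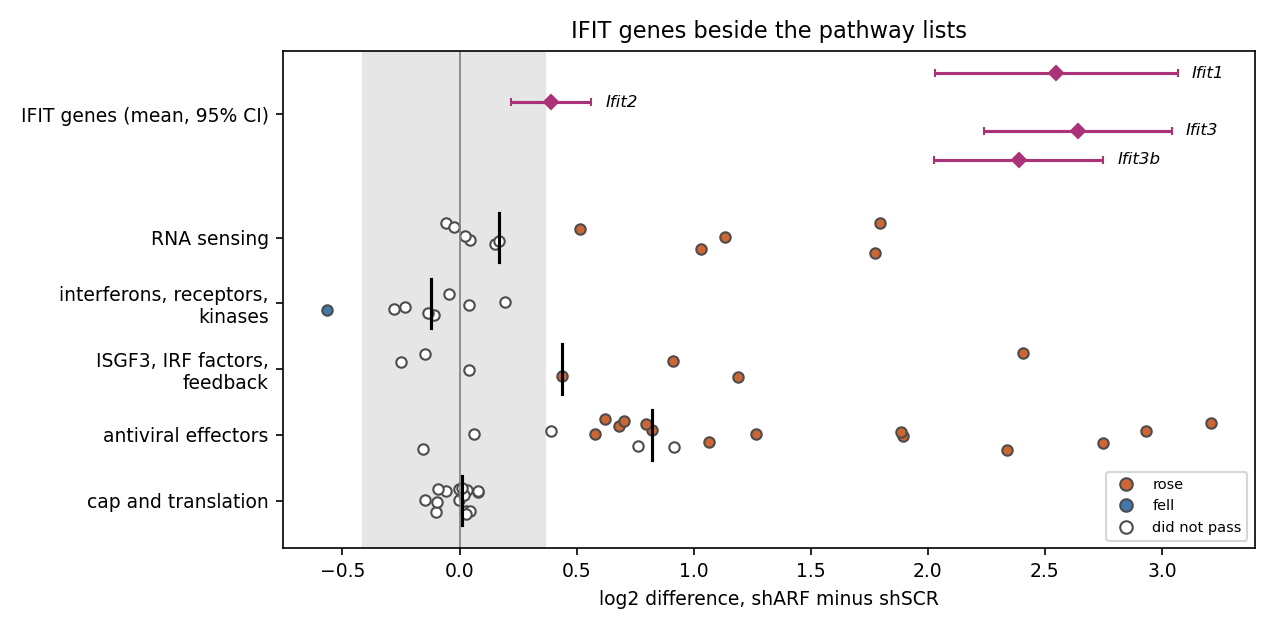
log2 difference between shARF and shSCR for the IFIT genes (diamonds with 95% confidence intervals) and for each tested gene of 5 pathway lists (circles, coloured where the gene passed the test); black bars are list medians and the grey band holds the central part of all genes tested, from -0.41 to 0.37. Ifit1, Ifit3 and Ifit3b lie beyond 2, Ifit2 near the edge of the band, and the cap and translation genes around 0.

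The sensors of cytosolic RNA rose, while the listed adaptor and kinase genes between them and the transcription factors did not pass. Of 11 genes of RNA sensing and early signalling 5 rose and 0 fell, with a median of 0.17. Ifih1, the sensor MDA5, rose from 43.8 ± 8.85 (SD, n = 3) to 151 ± 17.9, or 3.47-fold (limma, adjusted p = 0.00345). Ddx58, the sensor RIG-I, rose 2.20-fold from 176 ± 37.0 to 382 ± 36.2, and Dhx58, their regulator LGP2, rose 2.04-fold. Irf7, a factor that amplifies interferon production, rose 3.42-fold, and Trim25, a ubiquitin ligase acting on RIG-I and named after its values were seen, rose 1.43-fold. The adaptor gene Mavs, the kinase gene Tbk1 and the factor gene Irf3 differed by -0.06, -0.02 and 0.02 (log2) and did not pass. Ddx58 lost its call without shSCR replicate 1, Irf7 without shSCR replicate 1 or 3, and Trim25 without any 1 array except shSCR replicate 2.

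No ligand, receptor or kinase gene was called higher. Of 8 tested genes of interferons, receptors and kinases 0 rose and 1 fell (unadjusted p under 0.05 in limma for 0 higher and for 3 lower), with a median of -0.12. The gamma interferon receptor gene Ifngr1 had means of 227 ± 6.61 (SD, n = 3) and 154 ± 18.1 and fell by 0.56 ± 0.092 on the log2 scale (limma, adjusted p = 0.0230), a call lost without 4 of the arrays, the 3 shSCR arrays and shARF replicate 1. Ifnar1 and Ifnar2, the chains of the type I receptor, differed by -0.28 and -0.05, and the kinase genes Jak2 and Jak1 by -0.23 and -0.11; these 4 did not pass. Ifnb1, Ifna4 and Ifng were below detection on each of the 6 arrays. Ifna2, one of many near-identical interferon alpha genes, differed by 0.20 and did not pass.

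Of the factors that bind the response element, those measured from ISGF3 rose. Stat2 rose from 120.5 ± 16.4 (SD, n = 3) to 274 ± 26.2, or 2.28-fold (limma, adjusted p = 0.00459), and its DNA-binding partner Irf9 from 83.1 ± 11.4 to 157 ± 23.7, or 1.88-fold. Irf1, which binds related elements, rose 1.36-fold, and Usp18, a feedback inhibitor at the receptor, rose 5.31-fold from 47.6 ± 22.8 to 244 ± 78.9. The feedback inhibitor genes Socs1 and Socs3 differed by -0.15 and -0.25 and did not pass, so of 7 tested genes 4 rose and 0 fell, with a median of 0.44. Stat2 kept its call without any 1 array, Usp18 lost it without shSCR replicate 1 or 3, Irf9 without 4 of the 6 arrays and Irf1 without 5.

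Other antiviral effectors rose with the IFIT genes. Of 19 tested 14 rose and 0 fell, with a median of 0.82 and a range of -0.16 to 3.21. Oasl2, of the oligoadenylate synthetase family, rose from 43.1 ± 18.2 (SD, n = 3) to 313 ± 35.6, or 7.63-fold (limma, adjusted p = 0.00368), and Xaf1, an interferon-induced apoptosis factor, rose 3.69-fold. Herc6, the mouse ligase for ISG15, rose 1.74-fold from 39.5 ± 1.33 to 68.8 ± 4.70. Cmpk2, a mitochondrial nucleotide kinase, exceeded the detection level on 0 of the shSCR arrays, and it rose at least 1.59-fold, the shARF mean being set against the detection level of each shSCR array. Cmpk2 entered the test only through its shARF values, so its call adds no support to that bound. Mx2, among the 14 and above the level on 1 shSCR array, also needed its shARF values to enter. Cmpk2 kept its call without any 1 array, which adds no support either, since the filter was always set on all 6 arrays. Oasl2, Xaf1 and Herc6 also kept their calls without any 1 array. Each of the other genes among the 14 lost its call without at least 1 array. Oas2, named after its values were seen, lost it whichever of the 6 arrays was left out.

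Genes of cap methylation and of translation initiation, the machinery on which IFIT proteins act, did not pass the test. Of 15 genes tested 0 changed (limma; 0 also at an unadjusted p under 0.05), with a median of 0.01 and a range of -0.15 to 0.08. Rnmt, the cap methyltransferase, gave 269 ± 18.4 (SD, n = 3) and 244 ± 37.4, and Eif4a1, the helicase of the cap-binding complex, 4486 ± 118 and 4200 ± 16.4. Eif3a and Eif3e, subunits of the factor that IFIT1 and IFIT2 bind, differed by 0.08 each. Cmtr1, which adds the methyl mark that hides host RNA from IFIT1, was not analysed here.

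The genes whose signal over the 6 arrays ran most like the mean of Ifit1, Ifit3 and Ifit3b were Ddx60, Plekha3, Dgkk, Tmed10 and Gtf2e2, with Pearson r of 0.994 to 0.997 across 6 arrays. Ddx60, an interferon-induced helicase gene, was the closest and rose 2.65-fold (limma, adjusted p = 0.00225), while the other 4 rose 1.30-fold to 1.45-fold. Those most like Ifit2 were Zfp687, Zfp704, Neo1, Zbtb38 and Alcam, with r of 0.990 to 0.995, and differed by 0.16 to 0.53 on the log2 scale. Of these, Zfp704 and Neo1 passed the test (limma, adjusted p = 0.0195 and 0.0356). The arrays share 2 group means, which set much of each r, and the genes were picked for the highest values among 15145. The lists for Ifit2 and for the other three had 0 genes in common.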

How the data were processed

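RNA of 6 samples was measured on Affymetrix gene-level arrays. The authors summarised core probesets by RMA in Affymetrix Expression Console, per the submitters' processing notes and the design text, which give no version number. They deposited linear intensities, which were turned to log2 here. RMA equalises the arrays' distributions and shrinks folds of dim genes. The design text names SAM as the test, which was run here as an alternative.

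Probesets were named from the platform annotation: 21056 carry 1 symbol, 1450 several and 4345 none. A probeset was tested if it exceeded the 25th percentile of its array (the detection level) on at least 3 of 6 arrays, which left 20310 probesets and 15145 genes, each gene read from its probeset with the highest mean. The test of the groups was limma 3.58.1 (R 4.3.3, two-sided), with Benjamini-Hochberg adjustment over all tested probesets and a threshold of 0.05. With 3 arrays per group, precision is limited by their number. Ratios between genes were taken within arrays on the log2 scale. Start windows came from RefSeq tables (GRCm38.p6) and were aligned with Biopython 1.88. Scripts were tested on simulated data.

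The genes, lists and tests were chosen with earlier results of these data known. Named were the 4 genes, in each list up to 4 genes of lowest p, fixed pathway genes, 3 neighbours on each side and the 5 genes of most similar pattern. Alternatives were other filters, normalizations, an added 16, other variance models, SAM, a replicate block and leaving out arrays. Same-numbered arrays correlated at 0.078, 0.052 and 0.00062 in their deviations from the group means, so the numbers were not taken as pairs.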

Additional observations from a re-analysis of the deposited data

How the results depend on the processing

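Ifit1, Ifit3 and Ifit3b were called higher under every alternative run; in the 14 run with limma their log2 changes were 2.27 to 2.94, 2.38 to 2.86 and 1.56 to 2.53. Ifit2 was positive in all of them (0.34 to 0.48) and called in 6 of 14, and SAM called it as well. The count of IFIT genes called was 3 or 4 throughout. The count of 607 genes was 336 with the replicate block, 372 with no filter on dim probesets, 996 with the filter at the array median, 978 with 16 added before the log, 1281 with an intensity trend and robust prior, 997 in SAM and 137 without both replicate 2 arrays, the last chosen after seeing the data. Leaving out 1 array gave 150 to 330. The replicate block left 22 of 60 pathway genes called and gave Ifit2 an adjusted p of 0.0911 in limma; the numbers are shared in name only. Leaving out 1 array gave 9 to 21 pathway genes in place of 24. The change of Ifit2 against the other three was -1.71 with 16 added, where the dim Ifit3b counts for less by construction, and -2.27 to -2.02 on leaving out 1 array; against the single genes it was -2.25 to -1.996. Repeated quantile normalization and median centring gave 583 and 606 genes. Other probesets of the same genes could not be run, since each gene has 1. Dimness limits Ifit3b in shSCR.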

Other observations

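Matches to the core of the response element (GAAA, any 2 bases, GAAA, on either strand) were also counted over the genes that changed, as a description with no test. At least 1 start window held a match for 32 of the 190 genes higher in shARF that have a window (16.8%), for 7 of the 294 lower in shARF (2.38%) and for 409 of the 11961 genes tested (3.42%). Windows with 2 or more matches belonged to 11, 0 and 30 genes. Ifit1, Ifit3 and Ifit3b are among the 32 and among the 11, and the genes that changed are part of the 11961. Among the tested pathway genes with a window, the match was found for Ddx58 and Ifih1 of 10 sensing genes, for Ifna2 of 8 genes of interferons, receptors and kinases, for Stat2, Socs1 and Irf2 of 6 factor and feedback genes, for Bst2, Eif2ak2, Oas1a, Oas3 and Rsad2 of 14 antiviral effectors, and for Eif3a of 11 cap and translation genes. Of these 12 genes Ddx58, Ifih1, Stat2, Bst2, Eif2ak2, Oas1a and Rsad2 rose, and Ifna2, Socs1, Irf2, Oas3 and Eif3a did not pass. Irf7 and Oasl2 rose by more than Stat2 and had windows with no match.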
